A study of Mus musculus with 6 samples.

Results

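The genes of iron uptake, storage and export were examined in alveolar macrophages (AMs), the macrophages that live in the airspaces of the lung. They comprised 10 genes of the 24341 in the deposited table, taken by name: Tfrc, Slc11a2, Slc11a1, Hmox1, Fth1, Ftl1, Ncoa4, Slc40a1, Ireb2 and Aco1. The study asked how the loss of CD44, the cell surface receptor for hyaluronan, alters AMs in mice that had received no challenge. RNA was sequenced from AMs of female C57BL/6 mice carrying CD44 (CD44+/+) or lacking it (CD44-/-), aged 6 to 10 weeks, with 3 samples of each genotype. The cells were washed from the airways by bronchoalveolar lavage (BAL) and treated with a buffer that lyses red blood cells. Each sample was a pool of mice, so an SD here is the spread among pools of mice rather than among individuals. In bulk RNA of this kind, fewer cells of a type and less RNA per cell cannot be told apart.

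Macrophages take up iron bound to transferrin through the transferrin receptor, and they recover iron from engulfed red blood cells by breaking down heme. Iron that is not used at once is held in ferritin or leaves the cell through ferroportin, the only known exporter of iron in mammals. When iron is scarce, a pair of iron regulatory proteins bind a hairpin in certain mRNAs, the iron-responsive element (IRE): at the start of an mRNA this blocks its translation, and near its end it protects the mRNA from decay. Translation is not seen in RNA levels, so an IRE at the start of an mRNA acts on a step that these data did not measure.

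The hairpins are shown here because they divide the 10 genes into those whose mRNA carries the letters of an IRE at the start, those that carry them near the end, and the rest. The untranslated regions (UTRs) of the protein-coding transcripts in GENCODE (vM21, mouse genome build mm10) were searched on the strand of the transcript for a C, any 5 bases, the loop CAGTGN, and 5 bases able to pair with the first 5. The match was found in the 5′ UTR of Fth1, Ftl1 and Slc40a1, against 0.148% of the 20899 genes with a 5′ UTR. It was found 4 times in the 3′ UTR of Tfrc, against 0.613% of the 21028 genes with a 3′ UTR that held at least 1 match. In the 29 bases printed for each, 5′ to 3′, the capitals mark the unpaired C and the 6 bases of the loop.
Fth1, 5′ UTR, chr19:9982732-9982760, plus strand: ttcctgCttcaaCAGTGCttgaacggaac
Ftl1, 5′ UTR, chr7:45459779-45459807, minus strand: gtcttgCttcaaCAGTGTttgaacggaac
Slc40a1, 5′ UTR, chr1:45925465-45925493, minus strand: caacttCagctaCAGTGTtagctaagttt
Tfrc, 3′ UTR, chr16:32631219-32631247, plus strand: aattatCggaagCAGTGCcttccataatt
Tfrc, 3′ UTR, chr16:32631598-32631626, plus strand: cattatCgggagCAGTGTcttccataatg
Tfrc, 3′ UTR, chr16:32631663-32631691, plus strand: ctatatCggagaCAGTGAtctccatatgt
Tfrc, 3′ UTR, chr16:32631710-32631738, plus strand: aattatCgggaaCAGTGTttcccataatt
The ferritin pair share the 5 paired bases on either side of the loop, and the 4 hairpins of Tfrc each have a different arm before the loop. A match is a description of these letters and not a measured binding site. No match was found in the UTRs of Slc11a2, although forms of its mRNA are known to carry an IRE near their end, so the pattern does not find every IRE.

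Values are Cufflinks FPKM, fragments scaled to the length of the transcript and to the mapped fragments of the sample so that levels of different genes can be compared. The defining markers of AMs were high in all 6 samples, Siglecf (Siglec-F) at 243 to 268 FPKM and Chil3 at 10300 to 14200 FPKM. Of 14 AM markers with a row, 7 had a higher and 7 a lower mean in CD44-/- samples, and 1 was higher (Itgax, 435 to 460 and 466 to 495 FPKM) and 2 were lower (Krt79, 265 to 314 and 203 to 225 FPKM, and Mrc1, 524 to 535 and 493 to 510 FPKM) without overlap. Summed FPKM lay between 487901 and 504182, and relative depth, read from the smallest steps between low values, between 0.815 and 1.05 of that of CD44+/+ replicate 1. Cd44 itself had means of 534 ± 6.68 FPKM in CD44+/+ and 53.5 ± 1.87 FPKM in CD44-/- samples (SD, n = 3 each) and a log2 fold change of -3.32 (standard error 0.05, limma adjusted p = 4.19e-09).

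The 10 genes spanned more than 3 orders of magnitude in AMs, with ferritin far above the rest. Fth1 and Ftl1, the heavy and light subunits of ferritin, ranked 4 and 5 of all genes by mean FPKM, and Hmox1 followed at rank 308. Ncoa4, Aco1 and Ireb2 came next, and for each of these 3 the lowest of the 6 samples lay above the highest sample of the next gene down. The last 4, Slc11a1, Slc40a1, Slc11a2 and Tfrc, overlapped one another between 3.60 and 12.7 FPKM, so their order among themselves was not resolved. In every sample the Fth1 level was 1132 to 1716 times that of Slc40a1, the exporter.

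None of the 10 genes passed the genotype comparison. It was made on log2(FPKM + 0.1) with limma over the 10800 genes whose mean reached 0.5 FPKM, two-sided, with Benjamini-Hochberg adjustment, and a fold change is given on this scale as CD44-/- over CD44+/+. At an adjusted p under 0.05, 0 of 10 iron genes and 12 of all genes (0.111%) were called. At an unadjusted p under 0.05 the count was 1 of 10, Tfrc, against 831 of all genes (7.69%). In 0 of the 17 alternative settings did an iron gene reach an adjusted p under 0.05. The values were higher in CD44-/- AMs for 5 genes and lower for 5, with a median log2 fold change of 0.0018, beside 0.013 over all genes tested. The size of the log2 differences, without sign, had a median of 0.10 for the iron genes and 0.066 for all genes.

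**Figure D1:**
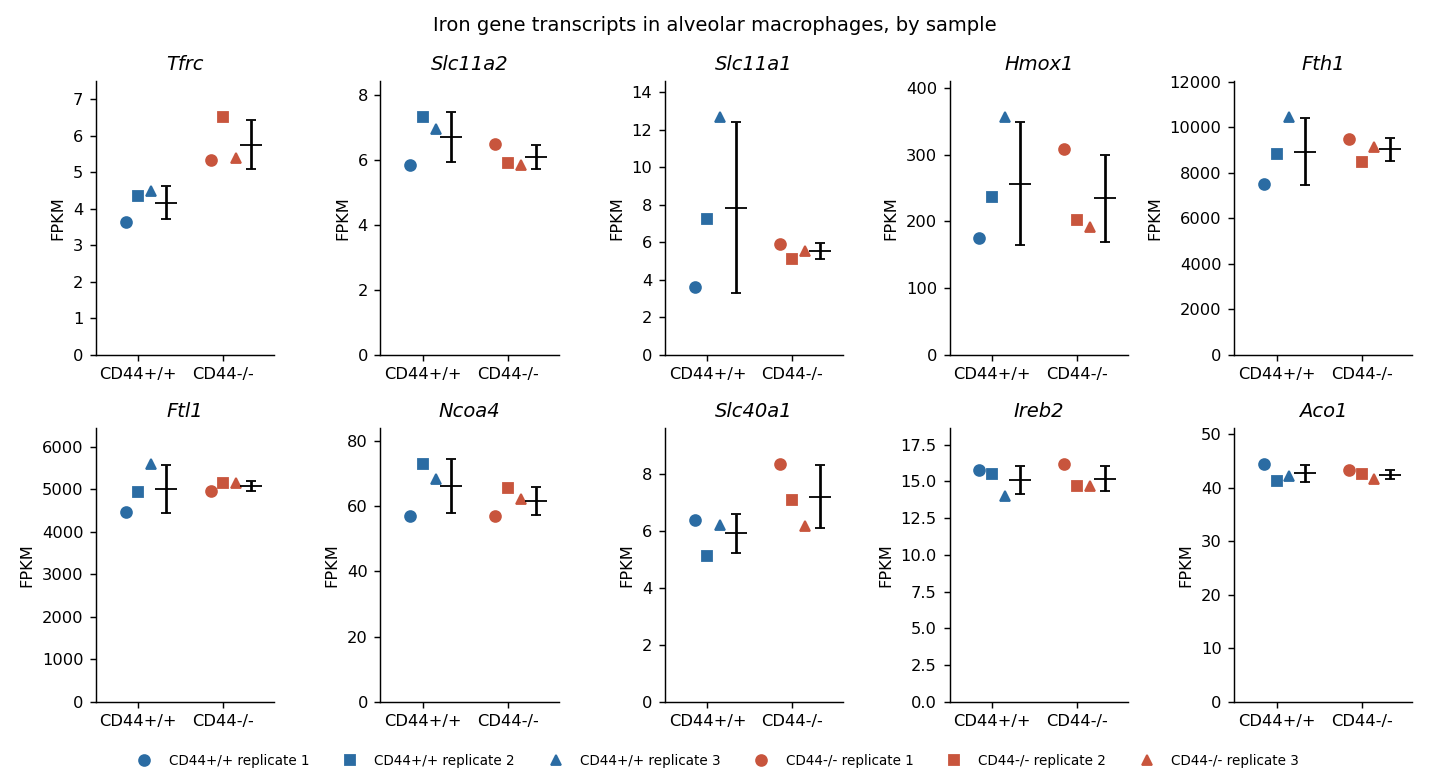
FPKM of each iron gene (vertical axes, from 0) in the 3 CD44+/+ (blue) and 3 CD44-/- (red) samples, with symbols for the replicate number and black bars for the mean ± SD of each genotype. Tfrc is the one gene whose genotypes do not overlap, and Slc11a1 has a CD44+/+ range of 3.60 to 12.7 FPKM that encloses all 3 CD44-/- samples.

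Tfrc encodes the transferrin receptor, which carries iron-loaded transferrin into the cell. The gene spans 32608896 to 32632794 of chromosome 16 (mm10, as for all positions here). Its level was 3.64, 4.36 and 4.48 FPKM in CD44+/+ replicates 1, 2 and 3, and 5.33, 6.52 and 5.39 FPKM in CD44-/- replicates 1, 2 and 3. All 3 CD44-/- samples lay above all 3 CD44+/+ samples, a pattern that 729 of all genes (6.75%) also had. The means were 4.16 ± 0.454 and 5.75 ± 0.670 FPKM (SD, n = 3 each), a log2 fold change of 0.46 (standard error 0.12, 95% interval 0.19 to 0.73), or a ratio of 1.37 (1.14 to 1.65) on that scale. The limma adjusted p was 0.354, and 0.236 in the fit that blocks on replicate number. An exact permutation test gave p = 0.1, the smallest that 3 samples against 3 allow, two-sided.

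Red blood cell precursors also express Tfrc at a high level, so globin transcripts are given beside it. The sum of 9 globin genes was 14.4, 122 and 29.9 FPKM in CD44+/+ replicates 1, 2 and 3, and 18.6, 331 and 17.1 FPKM in CD44-/- replicates 1, 2 and 3. Globin was thus highest in replicate 2 of each genotype, and CD44-/- replicate 2 also had the highest Tfrc. Of 13 erythroid markers, 11 had a row; their sum ran from 15.1 to 125 FPKM in CD44+/+ and from 17.9 to 338 FPKM in CD44-/- samples, with Epb4.2 at 0 in all 6. Without both replicates 2 the log2 fold change of Tfrc was 0.40 (limma adjusted p = 1), and with the log2 globin sum as a covariate it was 0.43 (limma adjusted p = 0.252). A list of 10 markers of monocytes and interstitial macrophages, all with a row, had a sum of 9.07 to 11.5 FPKM in CD44+/+ and 13.6 to 15.3 FPKM in CD44-/- samples. The sum did not overlap between the genotypes either. Of the 10 markers, 8 had a higher mean in CD44-/- samples, 4 of them without overlap, and 2 had a lower mean. C1qa was at 1.09 to 2.08 FPKM in CD44+/+ and 2.78 to 3.26 FPKM in CD44-/- samples, Ccr2 overlapped at 4.31 to 4.79 and 4.43 to 5.67 FPKM, and the monocyte marker Ly6c2 was at 0.0854 to 0.263 and 0 to 0.0984 FPKM. The part of these markers in the Tfrc difference was not tested.

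**Figure D2:**
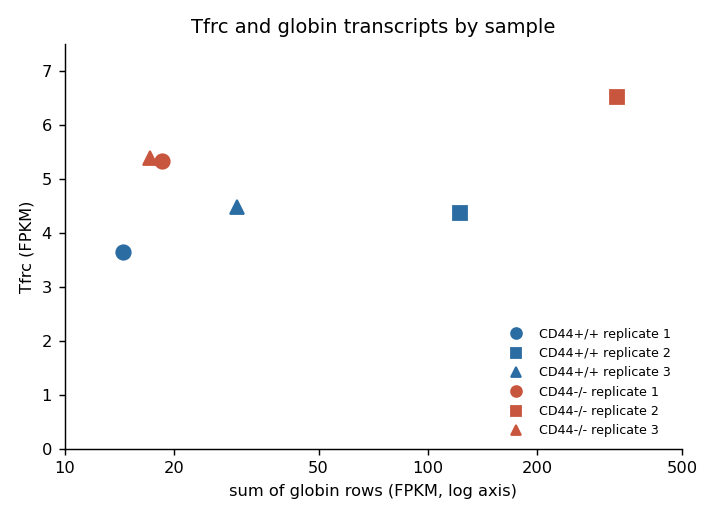
Tfrc (FPKM, vertical axis from 0) against the sum of the globin genes (FPKM, log axis) in each of the 6 samples, with color for genotype and symbol for replicate number. The samples with the highest globin of each genotype are the 2 labelled replicate 2, and the other CD44-/- samples, at 5.33 and 5.39 FPKM of Tfrc, lie above the CD44+/+ samples at low globin.

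Slc11a2 (DMT1) moves ferrous iron out of endosomes into the cytosol, and it lies on chromosome 15 from 100387900 to 100423055. Its level was 5.85, 7.33 and 6.93 FPKM in CD44+/+ and 6.50, 5.90 and 5.83 FPKM in CD44-/- replicates 1, 2 and 3. The genotypes overlapped, at means of 6.70 ± 0.764 and 6.08 ± 0.366 FPKM (SD, n = 3 each). The log2 fold change was -0.13 (95% interval -0.37 to 0.10, limma adjusted p = 0.883). Gene-level FPKM does not separate the mRNA forms of Slc11a2 with and without an IRE.

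Slc11a1 (NRAMP1) is the related transporter of phagosomes, where it removes metal from engulfed material, and C57BL/6 mice carry a form of the protein known to lack function. The gene lies on chromosome 1 from 74375203 to 74386051. Its level was 3.60, 7.23 and 12.7 FPKM in CD44+/+ replicates 1, 2 and 3, and 5.93, 5.10 and 5.54 FPKM in CD44-/- replicates 1, 2 and 3. The CD44-/- samples were close together and lay within the CD44+/+ range. The coefficient of variation was 58.4% in CD44+/+, at percentile 99.7 of 3783 genes of a like level, and 7.52% in CD44-/- samples. The means of 7.84 ± 4.58 and 5.52 ± 0.415 FPKM (SD, n = 3 each) gave a log2 fold change of -0.32 (95% interval -1.16 to 0.51, limma adjusted p = 0.951). The value rested on single samples: it was -0.79 without CD44+/+ replicate 1 (limma adjusted p = 0.201) and 0.11 without CD44+/+ replicate 3 (limma adjusted p = 0.986). Neutrophils also express Slc11a1: the sum of 11 of 12 neutrophil markers with a row was 91.3, 189 and 125 FPKM in CD44+/+ and 97.8, 114 and 100.1 FPKM in CD44-/- replicates 1, 2 and 3, with Mpo, Elane, Ngp and Camp at 0 in all 6. The sum was highest in CD44+/+ replicate 2, where Ltf alone was at 87.3 FPKM beside 28.7 and 37.2 FPKM in CD44+/+ replicates 1 and 3. The sum of 6 airway secretory markers was also highest in CD44+/+ replicate 2, at 1401 FPKM beside 842 and 936 FPKM in CD44+/+ replicates 1 and 3. Within CD44+/+, 4 of the 11 neutrophil markers were, like Slc11a1, lowest in replicate 1, namely Ltf, S100a8, S100a9 (0.493, 18.9 and 15.8 FPKM) and Retnlg. Cxcr2 (3.97, 2.62 and 3.71 FPKM) and Mmp8 (29.0, 22.6 and 22.3 FPKM) were highest there, and Csf3r (11.8, 11.9 and 9.32 FPKM) was lowest in replicate 3. Of the 14 AM markers with a row, 6 were also lowest of the CD44+/+ samples in replicate 1. The part of these marker lists in the spread of Slc11a1 was not tested.

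Hmox1, the inducible heme oxygenase that frees iron from heme, lies on chromosome 8 from 75093618 to 75100593. Its level was 175, 237 and 357 FPKM in CD44+/+ and 309, 202 and 192 FPKM in CD44-/- replicates 1, 2 and 3. High and low samples occurred in both genotypes. The means of 256 ± 92.5 and 234 ± 64.9 FPKM (SD, n = 3 each) gave a log2 fold change of -0.10 (95% interval -0.69 to 0.48, limma adjusted p = 0.982), and the sign turned to 0.17 without CD44+/+ replicate 3. Hmox2, the constitutive heme oxygenase, was between 90.1 and 96.7 FPKM in all 6 samples. The ratio of Hmox1 to Hmox2 was 1.94, 2.56 and 3.69 in CD44+/+ and 3.38, 2.20 and 2.07 in CD44-/- replicates 1, 2 and 3, a log2 difference of -0.08 (exact permutation p = 0.8).

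Ferritin, the cage that stores iron, had the most abundant transcripts of the 10 genes in both genotypes. Fth1, the heavy chain that oxidizes iron for storage, lies on chromosome 19 from 9980600 to 9985111 and was at 7519, 8821 and 10465 FPKM in CD44+/+ and 9471, 8462 and 9139 FPKM in CD44-/- replicates 1, 2 and 3. Ftl1, the light chain that helps to build the mineral core, lies on chromosome 7 from 45457944 to 45459886 and was at 4470, 4930 and 5600 FPKM in CD44+/+ and 4950, 5140 and 5140 FPKM in CD44-/- replicates 1, 2 and 3. For both chains the CD44-/- samples lay within the CD44+/+ range. Together they made up 2.40 to 3.26% of all summed FPKM in CD44+/+ and 2.79 to 2.87% in CD44-/- samples.

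The means of Fth1 were 8935 ± 1476 and 9024 ± 514 FPKM (SD, n = 3 each), a log2 fold change of 0.03 (95% interval -0.24 to 0.29, limma adjusted p = 0.989). Its direction depended on the scaling, being -0.07 after quantile normalization. The means of Ftl1 were 5000 ± 568 and 5077 ± 109.7 FPKM (SD, n = 3 each), a log2 fold change of 0.03 (95% interval -0.17 to 0.22, limma adjusted p = 0.986). The balance of light to heavy chain transcript was 0.594, 0.559 and 0.535 in CD44+/+ and 0.523, 0.607 and 0.562 in CD44-/- replicates 1, 2 and 3. The genotypes overlapped, with a log2 difference of 0.0020 (exact permutation p = 1). Both ferritin genes have processed copies elsewhere in the genome, so reads can be shared with these copies and the levels are uncertain to that extent.

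Ncoa4, the receptor that delivers ferritin to lysosomes to release its iron, lies on chromosome 14 from 32159887 to 32179855. It was at 57.2, 73.1 and 68.4 FPKM in CD44+/+ and 57.1, 65.7 and 62.3 FPKM in CD44-/- replicates 1, 2 and 3. In each genotype replicate 1 was the lowest and replicate 2 the highest, and within each of the 3 same-numbered pairs the CD44-/- value was the lower. The means of 66.2 ± 8.17 and 61.7 ± 4.36 FPKM (SD, n = 3 each) gave a log2 fold change of -0.10 (95% interval -0.31 to 0.12, limma adjusted p = 0.930, and 0.604 with the replicate block).

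Slc40a1 encodes ferroportin, the exporter, and lies on chromosome 1 from 45908070 to 45925594. It was at 6.39, 5.14 and 6.23 FPKM in CD44+/+ and 8.37, 7.09 and 6.19 FPKM in CD44-/- replicates 1, 2 and 3. CD44-/- replicates 1 and 2 lay above all CD44+/+ samples, and CD44-/- replicate 3 lay among them. The means of 5.92 ± 0.680 and 7.22 ± 1.10 FPKM (SD, n = 3 each) gave a log2 fold change of 0.28 (95% interval -0.02 to 0.57, limma adjusted p = 0.681). The ratio of importer to exporter transcript, Tfrc to Slc40a1, was 0.576, 0.851 and 0.724 in CD44+/+ and 0.641, 0.921 and 0.873 in CD44-/- replicates 1, 2 and 3. Its log2 difference was 0.18 (exact permutation p = 0.5), and the genotypes overlapped. Within each of the 3 same-numbered pairs the CD44-/- sample had the higher ratio, and the exact permutation test on pairs gave p = 0.25, the smallest that 3 pairs allow.

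The iron regulatory proteins that bind the IREs had the lowest coefficients of variation of the 10 among CD44+/+ samples, 3.83% for Aco1 and 6.39% for Ireb2. Aco1, which encodes IRP1 and doubles as the cytosolic aconitase when it holds an iron-sulphur cluster, lies on chromosome 4 from 40143265 to 40199009. It was at 44.5, 41.3 and 42.3 FPKM in CD44+/+ and 43.3, 42.6 and 41.6 FPKM in CD44-/- replicates 1, 2 and 3. Ireb2, which encodes IRP2, the form that is degraded when iron is plentiful, lies on chromosome 9 from 54863755 to 54912534. It was at 15.8, 15.5 and 14.0 FPKM in CD44+/+ and 16.2, 14.7 and 14.7 FPKM in CD44-/- replicates 1, 2 and 3. For both genes the samples of the genotypes were interleaved. The log2 fold change was -0.01 for Aco1 (95% interval -0.12 to 0.11, limma adjusted p = 0.991) and 0.01 for Ireb2 (95% interval -0.16 to 0.18, limma adjusted p = 0.989). Aco1 was 2.66 to 3.02 times as high as Ireb2 across the 6 samples, and the log2 difference of their ratio between genotypes was 0.02 (exact permutation p = 1). Adjusted over the 5 ratios compared, each exact permutation p was 1.

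**Figure D3:**
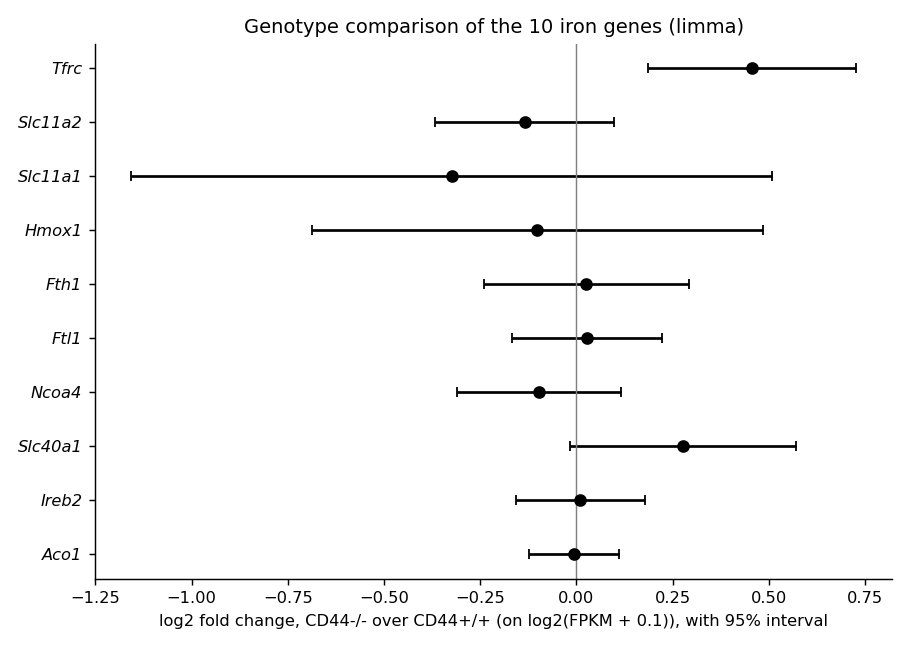
Log2 fold change of each iron gene, CD44-/- over CD44+/+ on log2(FPKM + 0.1) (horizontal axis), with points for the limma estimate and bars for its unadjusted 95% interval. The interval of Tfrc, 0.19 to 0.73, lies above 0 and those of the other 9 genes include 0, the widest being that of Slc11a1 at -1.16 to 0.51.

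The 10 genes also differed in how far samples of 1 genotype spread. Hmox1, Fth1, Ftl1 and Slc11a1 were lowest of all 6 samples in CD44+/+ replicate 1 and highest in CD44+/+ replicate 3, a pattern chosen after the values were seen. It was found in 4 of 10 iron genes and in 249 of all 10800 genes (2.31%). Among the 14 AM markers with a row, Marco (264 to 532 FPKM over the 6 samples), Car4 (420 to 620 FPKM) and Fabp4 (150 to 257 FPKM) also had it. On the log2 scale CD44+/+ replicate 3 lay above the mean of the 6 samples by 1.03 for Slc11a1, 0.59 for Hmox1, 0.23 for Fth1 and 0.16 for Ftl1, so the size of the spread differed between the genes. Over the 6 samples, none of the 45 pairs among the 10 genes passed adjustment for a correlation, the smallest adjusted exact permutation p being 0.391 for Pearson's r and 0.525 for Spearman's rho. With 6 samples, 1 pair alone could not have passed this adjustment whatever its correlation, so the result does not speak on single pairs.

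**Figure D4:**
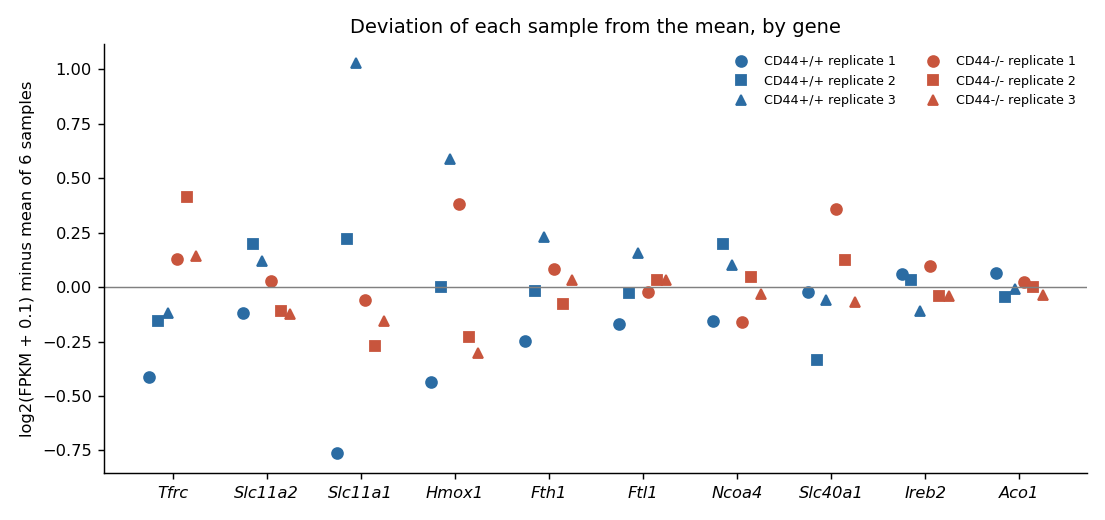
Deviation of each sample from the mean of the 6 samples on log2(FPKM + 0.1) (vertical axis) for each iron gene, with color for genotype and symbol for replicate number. CD44+/+ replicate 3 lies 1.03 above the mean for Slc11a1 and 0.59 above it for Hmox1, and CD44+/+ replicate 1 lies at the bottom for both.

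The wider machinery of iron and heme was described by 6 lists holding 74 genes, of which 57 passed the filter on low values. Of these, 0 were called, and at an unadjusted p under 0.05 the limma comparison gave 2 higher and 3 lower in CD44-/- AMs, where all genes had 513 higher and 318 lower (7.69% in either direction). Values were higher for 27 and lower for 30, with a median log2 fold change of -0.0045, beside 0.013 over all genes. The groups did not overlap for 1 gene that was higher and 5 that were lower, or 6 of 57, where all genes had 6.75% higher and 4.88% lower.

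Among the 8 tested genes of iron entry and reduction, transferrin (Trf), the iron carrier of plasma, was abundant in AMs at 1083 ± 58.6 FPKM in CD44+/+ and 1120 ± 26.5 FPKM in CD44-/- samples (SD, n = 3 each), with a log2 fold change of 0.05. Cd63, a tetraspanin of vesicles with which ferritin can leave cells, was at 116, 115 and 183 FPKM in CD44+/+ and 190, 168 and 175 FPKM in CD44-/- replicates 1, 2 and 3. Its log2 fold change was 0.40 (limma adjusted p = 0.615). CD44+/+ replicate 3 lay among the CD44-/- samples. Without it the log2 fold change was 0.62 (limma adjusted p = 0.0182), in a fit that called 13 of all genes. With any 1 other sample left out it was 0.28 to 0.44, and Cd63 was not called. Slc39a14 (ZIP14), a transporter of iron not bound to transferrin, was at 16.9 to 18.3 FPKM in CD44+/+ and 16.0 to 16.6 FPKM in CD44-/- samples (log2 fold change -0.13, limma adjusted p = 0.683).

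The chaperones Pcbp1 and Pcbp2, which hand iron to ferritin, were at 182 to 212 and 132 to 153 FPKM over the 6 samples, with log2 fold changes of -0.07 and -0.10. Fbxl5, the iron sensor that marks IRP2 for degradation, was at 59.9, 57.8 and 54.9 FPKM in CD44+/+ and 54.5, 49.9 and 49.1 FPKM in CD44-/- replicates 1, 2 and 3. Its genotypes were separated by less than 1 FPKM, and its log2 fold change was -0.17 (95% interval -0.31 to -0.03, limma adjusted p = 0.524). The other 5 tested genes of this list lay between -0.0007 and 0.054 on the log2 scale.

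Hepcidin, the hormone that degrades ferroportin, was nearly absent: Hamp was listed at 0 in 5 of 6 samples and at 0.275 FPKM in CD44-/- replicate 2, and Hamp2 was listed at 0 in all 6. Only 4 of the 11 genes of the export and hepcidin list were tested. Hfe, which senses iron with the transferrin receptors, was at 19.6 ± 0.851 and 18.6 ± 1.62 FPKM (SD, n = 3 each) in CD44+/+ and CD44-/- AMs, and the signal transducer Smad4 was at 17.0 ± 1.87 and 17.8 ± 0.907 FPKM (SD, n = 3 each). Their log2 fold changes were -0.08 and 0.07.

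Of 12 tested genes of heme uptake, breakdown and export, 9 had lower and 3 had higher values in CD44-/- AMs on the log2 scale, and 0 were called. Their median log2 fold change was -0.019, and over all genes tested 4773 were lower and 6027 higher. Lrp1, a receptor for heme bound to hemopexin, was at 162 to 247 FPKM, while Cd163, the receptor for hemoglobin bound to haptoglobin, was at no more than 0.0120 FPKM in any sample. Abcg2, which can export heme, was at 7.05, 6.67 and 5.61 FPKM in CD44+/+ and 7.64, 8.09 and 7.68 FPKM in CD44-/- replicates 1, 2 and 3. Its CD44-/- samples lay above all CD44+/+ samples, with a log2 fold change of 0.28 (limma adjusted p = 0.513). Blvra, a biliverdin reductase that acts after heme oxygenase, had a log2 fold change of -0.02. The smallest adjusted p of the 57 genes belonged to Nfe2l2, which encodes NRF2, an activator of Hmox1 and the ferritin genes, and which was named here after its values were seen. It was at 117, 117 and 126 FPKM in CD44+/+ and 105, 103 and 102 FPKM in CD44-/- replicates 1, 2 and 3, a log2 fold change of -0.21 (95% interval -0.33 to -0.10, limma adjusted p = 0.266). Nfe2l2 lies on chromosome 2 from 75675519 to 75704641, the chromosome of the deleted Cd44, at a distance of 27.1 Mb. Of the other 4 tested genes of the lists on that chromosome, Blvra at 24.2 Mb and Ciao1 at 24.3 Mb were nearer to Cd44. They lie on the other side of Cd44 from Nfe2l2, with log2 fold changes of -0.02 and 0.01. The part of position in the Nfe2l2 difference was not tested. None of the 10 iron genes lies on that chromosome.

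All 9 genes of heme synthesis were tested, and their log2 fold changes ran from -0.07 to 0.17. Alas1, the first enzyme of the pathway, was at 165 ± 19.1 and 157 ± 3.55 FPKM, and Tmem14c, which moves heme precursors into mitochondria, at 300.3 ± 2.89 and 302 ± 3.21 FPKM in CD44+/+ and CD44-/- samples (SD, n = 3 each). Neither passed the test. The 16 genes of mitochondrial iron and iron-sulphur clusters were all tested as well, 9 with higher and 7 with lower values. Slc25a37 (mitoferrin 1), which imports iron into mitochondria, was at 5.14, 5.47 and 4.54 FPKM in CD44+/+ and 4.40, 4.33 and 3.78 FPKM in CD44-/- replicates 1, 2 and 3. The genotypes did not overlap, with a log2 fold change of -0.27 (limma adjusted p = 0.591). Hspa9, the mitochondrial chaperone that acts in cluster transfer, was at 98.3 to 104 and 93.5 to 96.9 FPKM (log2 fold change -0.09, limma adjusted p = 0.721), and Nfu1, a cluster carrier, had a log2 fold change of -0.01.

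**Figure D5:**
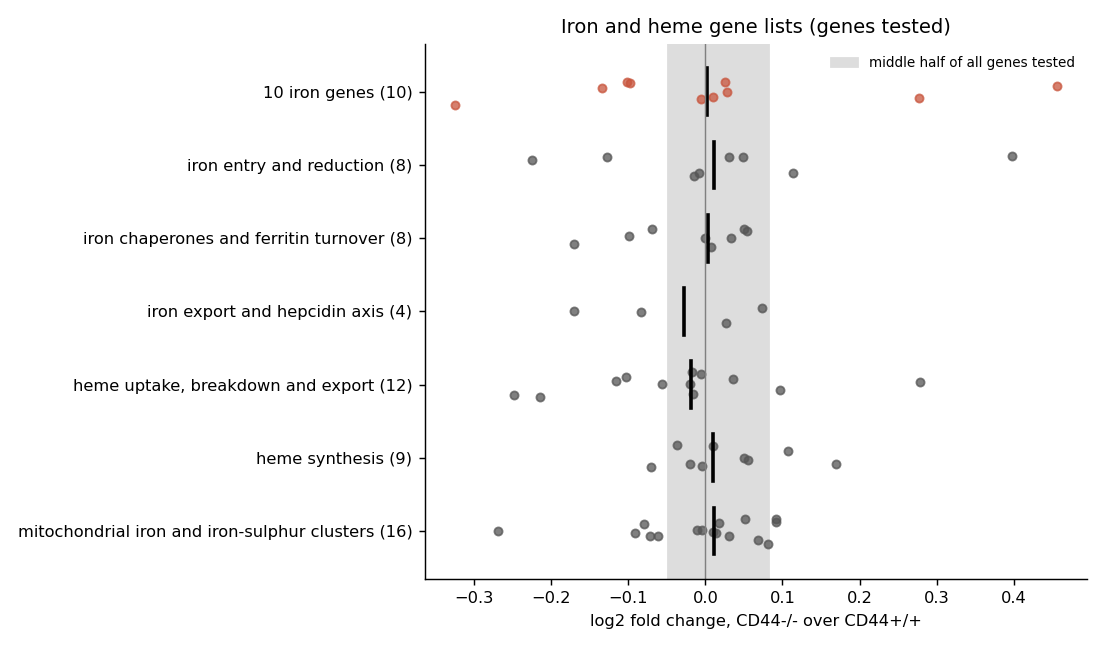
Log2 fold change, CD44-/- over CD44+/+ (horizontal axis), of the 10 iron genes (red) and of the tested genes of 6 wider iron and heme lists (grey), with a black bar at each median and a grey band from percentile 25 to percentile 75 of all genes tested. Each list's median lies inside the band, which runs from -0.05 to 0.08, and the highest point is Tfrc at 0.46.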

How the data were processed

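Per the labels, the authors isolated RNA with the Qiagen RNeasy kit and made Illumina libraries. They aligned the reads to mm10 with STAR and ran Cufflinks and Cuffdiff. The authors deposited 1 table of FPKM values for 24341 genes in the 6 samples, normalized for transcript length and mapped fragments. Its columns of means, fold changes, p-values and q-values from the authors' own comparison were not used. In that table the gene names beside the positions are in another order than the names beside the sample values (0 rows match), so positions were looked up by name. The first base was counted as 1.

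Values of each sample were used as deposited. Single values of some marker genes are not reported here. The 10800 genes whose mean reached 0.5 FPKM were compared on log2(FPKM + 0.1) in R 4.3.3 with limma 3.58.1 (lmFit, eBayes with a trend), adjusted by Benjamini-Hochberg. The 10 genes and the 6 wider lists were chosen with earlier results of these data known. Named from the lists were genes with an adjusted p under 0.05, the 2 highest by mean in each list, and the largest change among those with no overlap; Cd44 and Hmox2 were added. Nfe2l2, Ciao1, Hamp, Hamp2 and Cd163 and the single marker genes were named after their values were seen. Ratios of 2 genes were compared by an exact permutation test, adjusted over 5 ratios. Python 3.11.15 and GENCODE vM21 were used for the hairpin search. On simulated data the comparison was checked to recover known changes, all of them larger than that of any of the 10 genes. Recovery of changes as small as those of the 10 genes was not checked. FPKM does not give the number of reads, so absolute depth is unknown and no counting interval is given.

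Deviations from the group means correlated at 0.212, 0.132 and 0.211 between samples of the same replicate number 1, 2 and 3, each over 0.1. Between samples of different numbers the correlations ran from -0.195 to 0.0251. Deviations cancel within a group, so these values depend on one another. By this check the numbers may pair the samples, although no label ties same-numbered samples to a shared collection. The comparisons are unpaired, and the fit with the replicate number as a block is given as an alternative. Alternatives were the replicate block, leaving out each sample, adding 1 or 0.01 before the log, robust eBayes or eBayes with no trend, quantile normalization or median-ratio scaling, and a filter at 1 FPKM or none. Chosen after seeing the data were leaving out both replicates 2, with the highest globin, and a globin covariate.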

Additional observations from a re-analysis of the deposited data

How the results depend on the processing

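No iron gene was called under any of the 17 alternatives. Of 170 alternative log2 fold changes of the 10 genes, 157 kept their direction and 13 changed sign, and Tfrc ranged from 0.36 to 0.51 (limma adjusted p from 0.236 to 1). The replicate block changed no call among the 10 genes or the wider lists, and left 9 genes called over all genes. The count of all genes called, 12, was 7 without a filter, 2 without both replicates 2, and 6 to 36 with 1 sample left out: 36 without CD44+/+ replicate 1, 7 without CD44+/+ replicate 2, 22 without CD44-/- replicate 1 and 6 without CD44-/- replicate 2. In the wider lists 0 to 1 genes were called with 1 sample left out, the 1 being Cd63 without CD44+/+ replicate 3. Log2 values that changed sign are given next. With quantile normalization they were -0.068 for Fth1 and -0.013 for Ireb2, with median-ratio scaling -0.0047 for Ireb2 and -0.0051 for Tmem14c, and without both replicates 2 -0.055 for Lrp1 and 0.038 for Blvra. With 1 sample left out, the range was -0.35 to 0.17 for Hmox1, -0.092 to 0.15 for Fth1, -0.050 to 0.11 for Ftl1, -0.79 to 0.11 for Slc11a1, -0.043 to 0.043 for Ireb2, -0.030 to 0.024 for Aco1, -0.018 to 0.14 for Smad4, -0.11 to 0.19 for Lrp1, -0.065 to 0.033 for Blvra, -0.15 to 0.013 for Alas1, -0.043 to 0.016 for Nfu1 and -0.041 to 0.0099 for Hmox2. Ncoa4 (-0.20 without CD44+/+ replicate 1 to -0.022 without CD44+/+ replicate 2), Slc11a2 (-0.23 without CD44+/+ replicate 1 to -0.068 without CD44+/+ replicate 2) and Slc40a1 (0.17 without CD44-/- replicate 1 to 0.38 without CD44-/- replicate 3) kept their direction. With 1 sample left out, Hfe (-0.15 to -0.026), Pcbp1 (-0.12 to -0.026), Trf (0.020 to 0.093) and Abcg2 (0.18 to 0.35) kept theirs too. In the same way the log2 difference ranged from -0.053 to 0.056 for Ftl1 to Fth1, -0.56 to 0.22 for Slc11a1 to Slc11a2, -0.031 to 0.060 for Ireb2 to Aco1 and -0.31 to 0.16 for Hmox1 to Hmox2, while Tfrc to Slc40a1 kept its direction at 0.031 to 0.34. The causes were not tested. With 3 pools of mice a genotype, the intervals allow differences that the comparison could not call, such as -1.16 or 0.51 for Slc11a1. The p-values of limma set a genotype difference against the spread between pools, which limma draws toward a trend over all genes.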

Other observations

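The balance of the related metal transporters, Slc11a1 to Slc11a2, was 0.622, 0.987 and 1.82 in CD44+/+ and 0.914, 0.866 and 0.950 in CD44-/- replicates 1, 2 and 3. The log2 difference was -0.19 (exact permutation p = 0.7). The CD44+/+ samples lay on both sides of all 3 CD44-/- samples.

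The pattern of the lowest value in CD44+/+ replicate 1 and the highest in CD44+/+ replicate 3 was also found in 6 of the 57 tested genes of the wider lists (10.5%), namely Alad, Alas1, Blvrb, Hmox2, Lcn2 and Lrp1. It was chosen after the values were seen, and no test was made of it.

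Of the 8 alveolar type 2 cell markers, 6 had a higher and 2 a lower mean in CD44-/- samples, and 1 did not overlap between the genotypes. Napsa (47.3 to 61.7 FPKM over the 6 samples) and Abca3 (23.8 to 27.9 FPKM) were the 2 with a lower mean. Sftpb did not overlap between the genotypes, at 1.26 to 2.13 FPKM in CD44+/+ and 2.32 to 6.53 FPKM in CD44-/- samples (log2 fold change 1.24, limma adjusted p = 0.369). Sftpc was at 6.83 to 15.5 and 12.4 to 74.2 FPKM (log2 fold change 1.44, limma adjusted p = 0.591). The sum of the 8 markers, 90.7 to 106 FPKM in CD44+/+ and 94.1 to 168 FPKM in CD44-/- samples, overlapped. All 6 airway secretory markers had a lower mean in CD44-/- samples, none without overlap, and their sum was 842 to 1401 and 652 to 1134 FPKM. Of 6 lymphocyte markers with a row, 2 had a higher and 4 a lower mean, none without overlap, and their sum was 1.03 to 2.09 and 0.657 to 1.06 FPKM.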
